A study of Mus musculus with 6 samples.

Results

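The PPAR, ERR and PGC-1 regulators are 10 genes that set how much fat a muscle cell burns and how many mitochondria it builds. They are Ppara, Ppard, Pparg, Esrra, Esrrb, Esrrg, Ppargc1a, Ppargc1b, Rxra and Rxrg, taken by symbol from a deposited table of 31529 genes, and all 10 were found once each. The samples are wild-type hearts from ICR, an outbred mouse stock, at 2 stages of late gestation, day 16.5 (E16.5) and day 18.5 (E18.5). There were 3 libraries of polyadenylated RNA per stage, given as biological replicates, and no treatment or mutation in either group. The sources used here do not say whether a library came from 1 heart or several.

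PPARs are nuclear receptors that bind fatty acids and their derivatives, and they act on DNA as pairs with a retinoid X receptor (RXR). ERRs, the estrogen-related receptors, need no known natural hormone and bind genes of the citric acid cycle, the respiratory chain and fat oxidation. The PGC-1 coactivators do not bind DNA themselves. They dock on PPARs and ERRs and raise transcription of those genes, and in rodents the heart turns from glucose and lactate towards fat around birth.

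Esrra was the most abundant of the 10 genes in every library. The 2 PGC-1 coactivators came next in 5 of 6 libraries (in E16.5 replicate 2 Rxra exceeded Ppargc1b), while Ppara and Rxrg lay at the bottom at both stages. None of the 10 changed between E16.5 and E18.5 at an adjusted p under 0.05 (edgeR quasi-likelihood, Benjamini-Hochberg over all genes), beside 0.15% of the 19959 genes tested (0.0952% higher and 0.0551% lower at E18.5). DESeq2 called 1 of the 10, Pparg, beside 2.39% of the genes it gave an adjusted p, and it gave Rxrg none. Of the 10, limma on FPKM called 0, and 2 reached an unadjusted edgeR p under 0.05, beside 9.53% of all tested genes. Pparg had the largest stage difference of the 10 at 2.65-fold, with the 3 E18.5 libraries above the 3 E16.5 libraries, but its adjusted p was 0.185. Rxra was 0.80-fold at E18.5 with no overlap of the stages in scaled counts, and also did not pass (adjusted p = 0.511).

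Library totals ran from 61443414 to 77237333 estimated counts. Genes of the mitochondrial chromosome took 19.9% to 41.4% of them, lowest in E16.5 replicate 2 and highest in E16.5 replicate 1. Heart identity was clear, with the cardiac troponin gene Tnnt2 at 4742 to 6155 CPM (counts scaled to a common library size by TMM, which corrects for a few genes taking much of a library). In bulk RNA, fewer cells of a type and less RNA per cell cannot be told apart. Levels of different genes are compared below as FPKM, the authors' fragment counts corrected for gene length and library size, and stages are compared as CPM.

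Pparg is shown first by sequence, because its counts sum over several starts that a gene-level table cannot separate. Mouse Pparg is known to be transcribed from alternative starts, and the most downstream of the RefSeq windows listed here serves an isoform found mainly in fat. The 120 bases before each of its 3 RefSeq starts, and before the single start listed for Esrra, the most abundant member, are given from RefSeq (GRCm38.p6), 5′ to 3′ on the gene's strand. Pparg lies on the plus strand at chr6:115361024-115361143, chr6:115362229-115362348 and chr6:115421946-115422065, and Esrra on the minus strand at chr19:6921809-6921928. Capitals mark AGGTCA, the half-site that PPARs, ERRs and RXRs have in common.
Pparg start 1: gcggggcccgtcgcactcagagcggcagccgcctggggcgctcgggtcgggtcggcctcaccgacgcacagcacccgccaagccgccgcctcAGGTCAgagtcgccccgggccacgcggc
Pparg start 2: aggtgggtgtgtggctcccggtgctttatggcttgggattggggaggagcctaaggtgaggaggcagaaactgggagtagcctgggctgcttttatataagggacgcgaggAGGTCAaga
Pparg start 3: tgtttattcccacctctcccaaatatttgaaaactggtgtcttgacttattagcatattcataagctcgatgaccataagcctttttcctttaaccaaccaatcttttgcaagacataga
Esrra start: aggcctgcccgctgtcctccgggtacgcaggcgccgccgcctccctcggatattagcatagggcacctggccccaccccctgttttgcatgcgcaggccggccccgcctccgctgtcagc

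The half-site began 28 and 9 bases before the first and second Pparg starts and was not in the printed stretch of the third. RefSeq windows of 300 bases (250 before a start and 50 after it) were listed for 9 of the 10 genes, 17 windows in all. On either strand, AGGTCA was found in 4 of these 17 windows, in Pparg, Rxra and Rxrg, beside 16.3% of 32851 such windows of mouse genes. The ERR element TNAAGGTCA, which contains the half-site, was in 0 of 17 windows and in 1.28% of all. The element of PPAR and RXR pairs, a direct repeat of 2 half-sites with any 1 base between them, was in 0 of 17 and in 0.0396% of all.

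**Figure D1:**
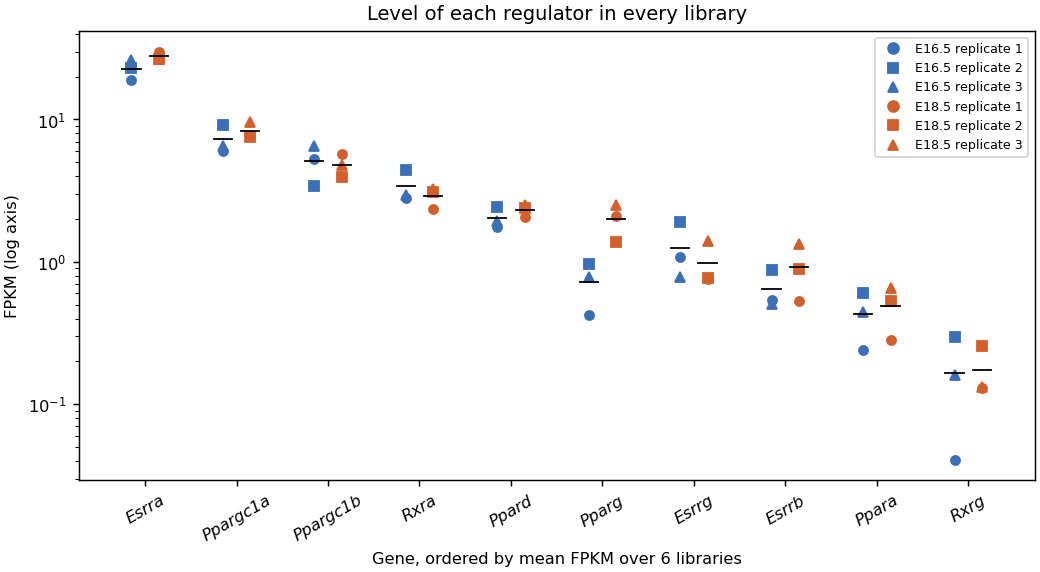
Level of each of the 10 genes in every library as FPKM on a log axis, with E16.5 in blue, E18.5 in orange, a symbol per replicate and a bar at each stage mean. Esrra lies between 19.1 and 29.95 FPKM above all others. Pparg separates by stage, as does Esrra by a narrow margin, though the share of all genes that do so in FPKM was not counted. E16.5 replicate 1 is the lowest library for Rxrg at 0.0407 FPKM.

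Averaged over the 6 libraries, the levels ran from 25.2 FPKM for Esrra through 7.75 for Ppargc1a, 4.95 for Ppargc1b, 3.14 for Rxra, 2.18 for Ppard, 1.36 for Pparg, 1.12 for Esrrg, 0.785 for Esrrb and 0.459 for Ppara to 0.17 for Rxrg. Among the 19959 tested genes, 94.4% lay below Esrra and 26.8% below Ppara. Esrra exceeded Ppargc1a, Rxra exceeded Ppard, Esrrb exceeded Ppara and Ppara exceeded Rxrg in 6 of 6 libraries. For each of these 4 steps the two-sided exact sign-flip p was 0.0312, the smallest that 6 libraries allow, and 0.0703 adjusted over the 9 neighbouring pairs. The remaining 5 steps held in 4 or 5 libraries, with adjusted exact p from 0.113 to 0.719. The least separated neighbours were Pparg and Esrrg, where Pparg was the higher in 4 of 6 libraries. Ppard exceeded Pparg in all 3 E16.5 libraries, but at E18.5 only in replicate 2.

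Among the PPARs, Ppard, the form expressed in most tissues, had the steadiest level. Ppard (ENSMUSG00000002250, GRCm38 chromosome 17, 28232700 to 28301474) was at 17.8, 16.2 and 17.5 CPM in E16.5 replicates 1, 2 and 3 and at 18.2, 18.02 and 18.4 CPM in the E18.5 replicates. The E18.5 libraries lay just above the E16.5 ones, a log2 change of 0.09 ± 0.13 (SE) that did not pass (edgeR adjusted p = 0.852). As FPKM the stages overlapped, from 1.75 to 2.41 at E16.5 and from 2.07 to 2.49 at E18.5.

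Pparg, best known for building fat cells, was the member with the clearest separation by stage. Pparg (ENSMUSG00000000440, chromosome 6, 115360951 to 115490399) held 108, 206 and 190 estimated counts in the E16.5 libraries and 484, 287 and 491 in the E18.5 libraries. In CPM these were 1.72, 2.54 and 2.77 at E16.5 against 7.26, 4.08 and 7.30 at E18.5. E18.5 replicate 2 was the lowest of its stage and still above every E16.5 library. The stage means were 2.34 ± 0.549 and 6.21 ± 1.85 CPM (SD, n = 3), which differ by 1.41 ± 0.31 (SE) in log2. The edgeR adjusted p of 0.185 misses the threshold, whereas DESeq2 gave an adjusted p of 0.00349 at a log2 change of 1.40, in a test that called 403 genes in place of 30. Over all alternatives the adjusted p of Pparg ran from 0.00349 to 0.641. With the mitochondrial share of each library as a term the log2 change was 1.38 ± 0.31. Pparg made up 22.2% ± 3.93 of the summed PPAR FPKM at E16.5 and 41.2% ± 8.02 at E18.5.

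Fat cells are the classic site of Pparg, so their markers are given beside it. Of 8 adipocyte markers, Cidea was at 1.5 to 4.08 CPM and was the only 1 that passed the filter on low counts. The brown fat protein Ucp1 was at 0 in all E16.5 libraries and at most 0.193 CPM at E18.5. The fat hormone gene Adipoq was at 0.165 CPM or less in every library. The summed marker level, most of it Cidea in every library, was 1.86 to 4.30 CPM at E16.5 and 3.06 to 4.39 CPM at E18.5. The stages overlapped in this sum, which says little about the other markers. Macrophage markers, the other common site of Pparg, summed to 62.5 to 70.6 CPM and 61.7 to 85.4 CPM, and endothelial markers to 574 to 697 CPM and 662 to 734 CPM, overlapping as well. The summed level of 7 fibroblast markers did not overlap, at 2252 to 3536 CPM against 3781 to 4957 CPM, though 3 of the 7 (Dcn, Postn and Pdgfra) overlapped singly and 0 were called by edgeR or DESeq2 (3 at an unadjusted edgeR p under 0.05). Their part in the Pparg difference was not tested. Of the red blood cell markers, the embryonic globin Hbb-y fell from 24.5 ± 6.98 to 2.24 ± 1.11 CPM (edgeR adjusted p = 0.0219), while the summed marker level overlapped between the stages. Its adjusted p was 0.0701 to 0.132 on leaving out E16.5 replicate 1 or 3 or E18.5 replicate 1 or 2.

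Ppara, the main switch of fat oxidation in the adult liver and heart, was scarce at both stages. Ppara (ENSMUSG00000022383, chromosome 15, 85734983 to 85802819) was at 1.275, 2.08 and 2.07 CPM at E16.5 and 1.275, 2.03 and 2.50 CPM at E18.5. Replicate 1 was the lowest library of either stage, and the stages overlapped nearly completely. The log2 change of 0.10 ± 0.36 (edgeR adjusted p = 0.945) turned negative in 3 alternatives, namely the mitochondrial share as a term and leaving out E16.5 replicate 1 or E18.5 replicate 3. Per length, Ppard exceeded Ppara by 4.02 to 7.25 times in the E16.5 libraries and by 3.79 to 7.31 times in the E18.5 libraries. The log2 ratio of Ppara to Ppard was -2.33 ± 0.46 (SD, n = 3) and -2.32 ± 0.49.

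**Figure D2:**
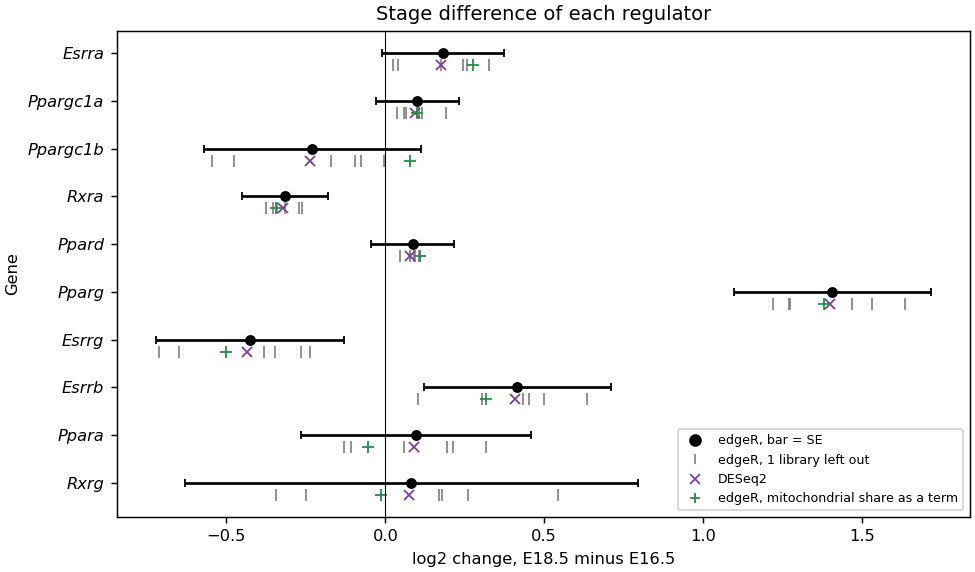
Log2 change from E16.5 to E18.5 of each gene, with the edgeR estimate and its SE in black, the 6 estimates that leave out 1 library as grey ticks, DESeq2 as purple crosses and the fit with the mitochondrial share as green plus signs. Pparg is the 1 gene whose estimates all exceed 1, while those of Ppara and Rxrg fall on both sides of 0 and those of Ppargc1b reach 0.08.

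The ERR family was nearly all Esrra. Esrra (ENSMUSG00000024955, chromosome 19, 6910977 to 6921813), which encodes ERRα, supplied 89.2% to 95.9% of the summed ERR FPKM across the 6 libraries. Its level was 114, 90.3 and 137 CPM at E16.5 and 155, 117 and 115 CPM at E18.5. E16.5 replicate 2 was the lowest and E18.5 replicate 1 the highest, with the other 4 libraries interleaved. As FPKM, without TMM scaling, the stages did not overlap, at 19.1 to 26.1 and 26.6 to 29.95. The lowest was E16.5 replicate 1, the library with the highest mitochondrial share (41.4%). The share of all genes without overlap in FPKM was not counted, and limma on FPKM did not call Esrra (adjusted p = 0.835). The log2 change was 0.18 ± 0.19 (edgeR adjusted p = 0.780), and 0.27 ± 0.13 with the mitochondrial share as a term. It was 0.02 without E18.5 replicate 1, 0.04 without E16.5 replicate 2 and 0.33 without E16.5 replicate 3. Trmt112 overlaps Esrra on the other strand with 22.4% as many counts, and the sources used here do not say if strand was used in counting.

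Esrrb and Esrrg, the ERRβ and ERRγ genes, had log2 changes of opposite sign, neither of which passed. Esrrb (ENSMUSG00000021255, chromosome 12, 86361117 to 86521628), known best from pluripotent stem cells and placenta, was at 4.46, 4.77 and 3.67 CPM at E16.5 and at 3.78, 5.44 and 7.98 CPM at E18.5. E18.5 replicate 3 stood above the rest, and the log2 change was 0.42 ± 0.29 (edgeR adjusted p = 0.680). It was 0.10 without that library. Esrrg (ENSMUSG00000026610, chromosome 1, 187608791 to 188214885), which in mice is needed for the oxidative program of the heart around birth, was at 9.15, 10.6 and 5.79 CPM at E16.5 and at 5.54, 4.84 and 8.61 CPM at E18.5. E16.5 replicate 3 and E18.5 replicate 3 crossed into the range of the other stage. The log2 change was -0.43 ± 0.30 (edgeR adjusted p = 0.674). Esrra exceeded Esrrg by 12.0 to 33.4 times in FPKM at E16.5 and by 18.9 to 39.4 times at E18.5, ranges that overlap. The difference of the log2 ratio of Esrrg to Esrra was -0.62 between stages, with a two-sided exact permutation p of 0.2, where 3 libraries against 3 allow no p below 0.1. On leaving out 1 library it ran from -1.02 (without E16.5 replicate 3) to -0.28 (without E16.5 replicate 2).

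Of the 2 coactivators, Ppargc1a was even across libraries and Ppargc1b was not. Ppargc1a (ENSMUSG00000029167, chromosome 5, 51454250 to 51567726), which encodes PGC-1α, the coactivator induced by cold, exercise and fasting, was at 54.0, 54.1 and 51.0 CPM at E16.5 and 59.4, 49.4 and 61.8 CPM at E18.5. Its highest library exceeded its lowest by 1.25 times, and the stages overlapped through E18.5 replicate 2. The log2 change was 0.10 ± 0.13 (edgeR adjusted p = 0.824).

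Ppargc1b (ENSMUSG00000033871, chromosome 18, 61298136 to 61400431), which encodes PGC-1β, was at 28.5, 12.2 and 31.1 CPM at E16.5 and 26.6, 15.9 and 18.7 CPM at E18.5. Its libraries spread 2.55-fold, with E16.5 replicate 2 the lowest of all 6. The 3 libraries with the highest mitochondrial share (41.4%, 35.0% and 33.5%) held the 3 highest Ppargc1b levels, and the library with the lowest share (19.9%) held the lowest. The log2 change between stages was -0.23 ± 0.34 (edgeR adjusted p = 0.850). With the mitochondrial share as a term it was 0.08 ± 0.17, and without E16.5 replicate 2 it was -0.55 ± 0.21 (adjusted p = 0.176). The FPKM ratio of Ppargc1a to Ppargc1b was 1.15, 2.69 and 0.991 in the E16.5 replicates and 1.35, 1.88 and 2.00 in the E18.5 replicates, so E16.5 replicates 2 and 3 were the 2 extremes. The exact permutation p of that ratio between stages was 0.7.

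**Figure D3:**
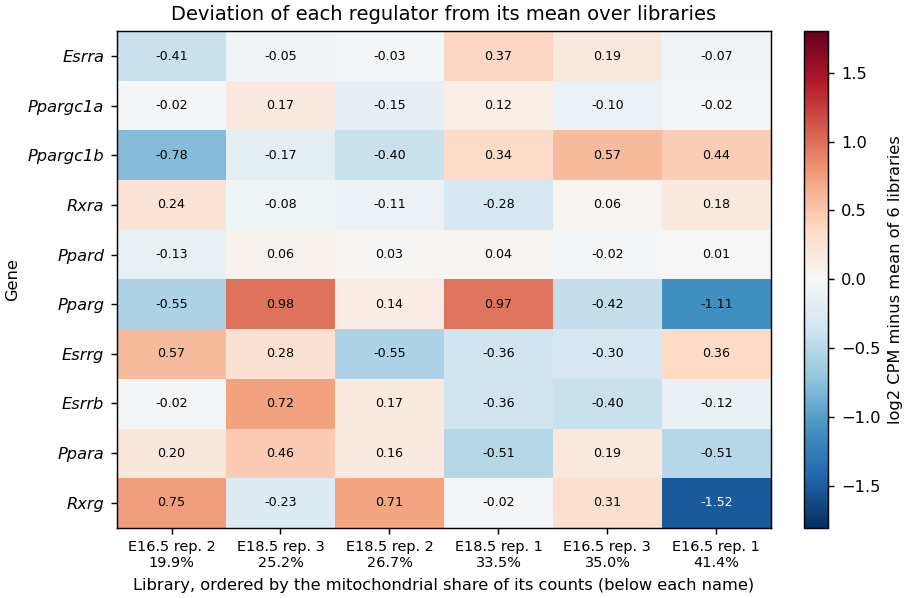
Deviation of each gene in each library from its mean over the 6 libraries in log2 CPM, with the libraries ordered from left to right by the mitochondrial share of their counts, 19.9% to 41.4%. Ppargc1b goes from -0.78 at the lowest share to 0.44 at the highest, and Ppargc1a stays between -0.15 and 0.17.

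The RXRs are the partners without which PPARs do not bind DNA. Rxra (ENSMUSG00000015846, chromosome 2, 27676440 to 27762957), whose loss in mice thins the ventricular wall, was at 23.9, 25.0 and 22.0 CPM at E16.5 and 17.35, 19.6 and 19.98 CPM at E18.5. Every E18.5 library lay below every E16.5 library. The log2 change was -0.32 ± 0.14, with an edgeR adjusted p of 0.511 and a range of 0.221 to 0.927 over the alternatives. As FPKM, which carries no TMM scaling, the stages overlapped, at 2.80 to 4.45 and 2.35 to 3.23. Rxrg (ENSMUSG00000015843, chromosome 1, 167598384 to 167639623), the RXR of skeletal muscle and nerve, held 8 to 50 counts at E16.5 and 21 to 42 at E18.5. At 0.128 to 0.616 CPM and 0.312 to 0.597 CPM the stages overlapped, and at this depth no stage difference was detectable (log2 change 0.08 ± 0.71). Rxrb, the third RXR gene and not among the 10, was the most abundant of the 3 per length at 6.95 to 11.6 FPKM and had a log2 change of -0.08 ± 0.14.

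The 10 genes are set here beside all tested genes. All 10 passed the filter on low counts, 7 with a positive and 3 with a negative log2 change. Their median absolute log2 change was 0.21, beside 0.25 over all tested genes. At an unadjusted edgeR p under 0.05 there were 2, Pparg higher and Rxra lower, beside 9.53% of all tested genes. The CPM of the stages did not overlap for 3, Ppard, Pparg and Rxra, beside 16.5% of all tested genes (8.45% higher and 8.02% lower at E18.5).

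Among the genes that PPARs are known to drive, Plin4 alone passed the edgeR test. Of 35 PPAR target genes of fatty acid handling, 32 were tested, 1 rose and 0 fell, with a median log2 change of 0.11 beside -0.0019 over all tested genes. At an unadjusted p under 0.05, 7 were higher and 2 lower, beside 4.83% and 4.70% of all tested genes in those directions. Plin4, which coats lipid droplets, was at 12.1, 6.63 and 9.07 CPM at E16.5 and 54.0, 47.6 and 63.9 CPM at E18.5, the stages lying far apart. It rose with a log2 change of 2.58 ± 0.23 (edgeR adjusted p = 0.00819, and 0.0846 without E16.5 replicate 3). Hdgfl2, on the other strand over Plin4, held 440% as many counts. The summed fibroblast markers were also higher at E18.5, and their part in this list was not tested.

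Lpl, which frees fatty acids from lipoproteins, and Fabp4, which carries them inside endothelium and fat, were higher in every E18.5 library than in any E16.5 library without passing. Lpl went from 260 ± 28.4 to 441 ± 71.6 CPM (log2 change 0.76, edgeR adjusted p = 0.185). Fabp4 went from 196 ± 62.9 to 385 ± 35.4 CPM (0.97, edgeR adjusted p = 0.223). Acot2, a mitochondrial thioesterase, lay the other way, at 31.7 ± 10.9 and 16.9 ± 2.97 CPM (-0.91, edgeR adjusted p = 0.343). DESeq2 called 3 of the list higher and 2 lower, among them Lpl, Fabp4, Acot2 and Plin4, beside 2.39% of all genes. With the mitochondrial share as a term, edgeR called 4 higher and 0 lower, beside 0.922% of all genes. Its adjusted p was then 0.0384 for Lpl, 0.0301 for Fabp4 and 0.119 for Acot2. Without E16.5 replicate 2, edgeR called 5 higher and 1 lower, beside 1.78% of all genes tested in that fit, and the adjusted p was 0.0447 for Lpl, 0.0295 for Fabp4 and 0.0374 for Acot2.

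**Figure D4:**
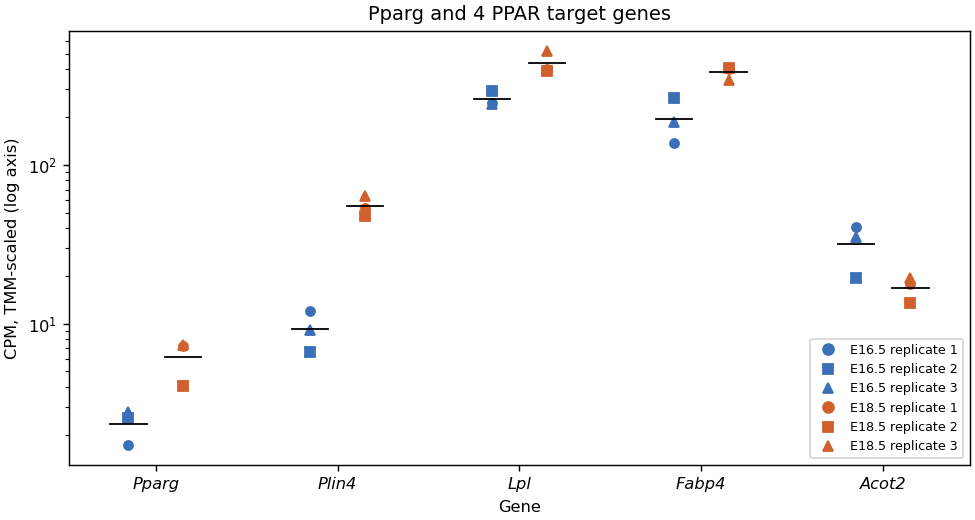
CPM of Pparg and the 4 PPAR target genes named in the text in every library, on a log axis, with E16.5 in blue, E18.5 in orange and a bar at each stage mean. The stages do not overlap in any of the 5 genes, beside 16.5% of all tested genes, with Acot2 lower at E18.5 and the others higher. The 4 targets were picked by their small stage p, so their separation says nothing about the list as a whole.

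Mitochondrial genes that ERRs and PGC-1 are known to drive were mostly higher at E18.5, though a single one passed. Of 34 tested, 29 had a positive log2 change, beside 49.8% of all tested genes. The median was 0.30 beside -0.0019 over all tested genes. At an unadjusted edgeR p under 0.05, 9 were higher and 0 lower, beside 4.83% and 4.70% of all tested genes in those directions. Ckmt2, the mitochondrial creatine kinase of muscle, was the 1 called higher by edgeR, with 0 called lower. DESeq2 called 3 higher, and edgeR called 6 higher without E16.5 replicate 2 and 4 with the mitochondrial share as a term. Over all genes, these settings called 2.39%, 1.78% and 0.922%. Ckmt2 was at 10.1, 12.8 and 11.2 CPM at E16.5 and 27.3, 24.8 and 31.9 CPM at E18.5, which is 1.303 ± 0.16 on the log2 scale (edgeR adjusted p = 0.0346). The call was lost on leaving out any library other than E16.5 replicate 2 (adjusted p from 0.114 to 0.199), in limma on FPKM (0.259 and 0.270) and with library totals that left out mitochondrial genes (0.0585). Its log2 change stayed between 1.2004 and 1.398 in all 14 alternatives.

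Next by rank came the fusion proteins Mfn1 (0.47) and Mfn2 (0.38), the ATP carrier Slc25a4 (0.57) and the succinate dehydrogenase subunit Sdhb (0.42). None of them passed in the main fit, with edgeR adjusted p from 0.278 to 0.395. DESeq2 called Mfn1 (adjusted p = 0.0232) and Slc25a4 (0.0372), but not Mfn2 or Sdhb. In edgeR, Slc25a4 passed with the mitochondrial share as a term (adjusted p = 0.0287) and without E16.5 replicate 2 (0.0425). In the median deviation of this list from its mean over libraries, E16.5 replicate 2 stood at 0.08, above the 0.07 of E18.5 replicate 1. The remaining E16.5 libraries were at -0.30 and -0.28. Markers of heart muscle and fibroblasts were also mostly higher. Of 8 cardiomyocyte markers 7 had a positive log2 change, with a median of 0.26, and 0 were called by edgeR (2 at an unadjusted p under 0.05). The largest was Nppa, the natriuretic peptide gene, at 1036 ± 248 and 2228 ± 50.5 CPM (edgeR adjusted p = 0.147), and DESeq2 called Nppa and Ryr2, the calcium release channel gene. All 7 fibroblast markers were positive, with a median of 0.55. Of all tested genes, 49.8% were positive. The part of either cell type in the list's values was not tested. The list's median was 0.45 without E16.5 replicate 2 and 0.27 with the mitochondrial share as a term. The median for PPAR targets was 0.26 without that library.

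Of 22 coregulators and upstream enzymes of the 10 genes, 0 were called by edgeR, 1 by DESeq2 and 1 reached an unadjusted edgeR p under 0.05. Over all genes these shares were 0.15%, 2.39% and 9.53%. A positive log2 change was seen in 7 and a negative one in 15, beside 49.8% positive among all tested genes. The median log2 change was -0.08, beside -0.0019 over all tested genes. Under limma on FPKM that median was 0.02. Pprc1, the third coactivator of the PGC-1 family, was that 1 gene, at 29.7, 28.8 and 29.5 CPM at E16.5 and 41.5, 42.3 and 46.5 CPM at E18.5. All 3 E18.5 libraries lay above the narrow E16.5 range, and its log2 change was 0.56 ± 0.12 (edgeR adjusted p = 0.164, DESeq2 adjusted p = 0.00439). With the mitochondrial share as a term its edgeR adjusted p was 0.0437. Ldb1, on the other strand over Pprc1, held 479% as many counts. The acetyltransferase Crebbp (-0.24), the corepressor subunit Gps2 (-0.54) and the coactivator Ncoa1 (-0.20) followed, with adjusted p from 0.548 to 0.650.

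Of 13 tested genes among Rxrb and the other receptors that pair with RXR, 0 were called by edgeR or DESeq2, and the median log2 change was -0.08, but 0.04 with the mitochondrial share as a term and 0.02 under limma on FPKM. An unadjusted edgeR p under 0.05 was reached by 1 higher and 1 lower gene, beside 4.83% and 4.70% of all tested genes in those directions. The constitutive androstane receptor Nr1i3 had a log2 change of 1.22, with 4.0, 2.55 and 3.74 CPM at E16.5 and 11.9, 3.61 and 8.53 CPM at E18.5, where replicate 2 lay inside the E16.5 range. The retinoic acid receptor Rara (-0.43), the liver X receptor Nr1h2 (-0.44) and the thyroid hormone receptor Thra (-0.40) were each lowest at E18.5 replicate 2. Adjusted p for these 4 receptors ran from 0.389 to 0.549.

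**Figure D5:**
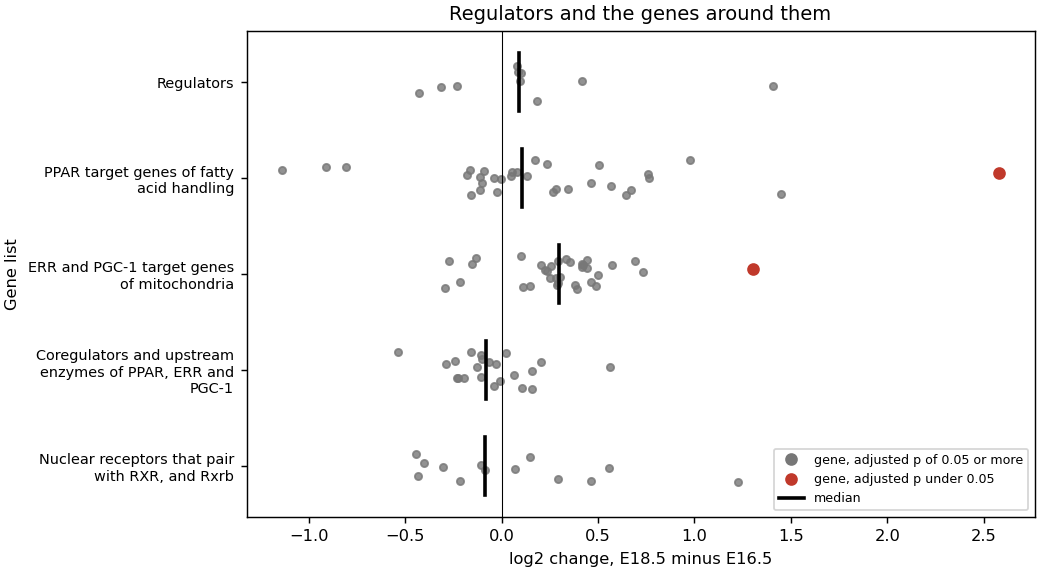
Log2 change from E16.5 to E18.5 of the 10 regulators and of the tested genes in 4 lists around them, each point a gene, red where the adjusted p was under 0.05 and a black bar at the median. Plin4 and Ckmt2 are the 2 red points, and the list medians are 0.11, 0.30, -0.08 and -0.08 from the PPAR targets down.

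Genes whose log2 CPM followed a member most closely over the 6 libraries were sought among 8811 or 8812 genes at 10 CPM or more. All points share the same libraries, so these Pearson correlations are descriptions. Esrra was followed most closely by Cox7a1, a heart and muscle subunit of cytochrome oxidase (r = 0.994), and by Rccd1 (0.989). Cox7a1 is in the list of ERR and PGC-1 targets, but the list as a whole did not follow Esrra at E16.5. In E16.5 replicates 1, 2 and 3 its median deviation was -0.30, 0.08 and -0.28, and that of Esrra was -0.07, -0.41 and 0.19. Ppard was followed by Sbf1 and Frmd5, Esrrb by Asxl1 and Smurf2, Esrrg by Pip5k1b and Foxo3, and Rxra by Rhobtb2 and Rasa2, with r from 0.964 to 0.996. Genes at r above 0.95 numbered 32 for Ppard, 27 for Esrra, 19 for Esrrb, 14 for Rxra and 3 for Esrrg. Ppargc1b had 267 such genes, led by Zfp865 and Rnf123, and Ppargc1a had 1, Kdm1a, with Ndufs3 next at 0.949. Over the libraries Ppargc1a spread 1.25-fold and Ppargc1b 2.55-fold, and the part of this spread in these numbers was not tested.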

How the data were processed

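Hearts of ICR embryos were profiled by RNA sequencing, 3 libraries at each of 2 stages. Per the labels' protocols, oligo(dT)-selected RNA went into dUTP-stranded libraries with molecular identifiers. Per the submitters' processing notes, StringTie 1.3.4d, HISAT2 2.0.4, UMI-tools and cutadapt 1.9 were used, with mm9 as a named build and no roles given. The authors deposited estimated counts, whole numbers per gene and library labelled count, and FPKM values, with these labels per the file headers. The word estimated was chosen here, because low FPKM values were read as implying smaller numbers than the listed counts. The submitters do not say how the estimated counts were made before the files were deposited, or whether molecular identifiers and strand were used. Library totals ran from 61443414 to 77237333, and p-values measure the spread between these 6 libraries.

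The comparison of stages used R 4.3.3 and edgeR 4.0.16 (quasi-likelihood test, two-sided, filterByExpr, TMM scaling, stage as the only term). The SE is the absolute log2 change divided by the root of F. Alternatives used DESeq2 1.42.0 and limma 3.58.1 (log2 of FPKM plus 1 or 0.1). FPKM neighbours were compared with a pseudocount of 0.1, and ratios of members without one. The fit was tested on simulated counts with less spread than these data, whose common biological coefficient of variation was 34.3%. Only well-counted genes were changed in them, so the simulation does not cover genes as scarce as Rxrg or the real spread. Positions come from GENCODE M21 on GRCm38 by identifier. A blastn 2.17.0 search found 0 other genes matching a member over 100 bases at 95% identity.

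Members, gene lists and tests were chosen with earlier results of these data known. Named genes were the 10 members and, per list, every called gene and up to 4 others by smallest p, of which 1 is not reported here. Of the listed symbols Atp5f1b, Atp5mc3 and Myod1 did not match a row, and Atp5b and Atp5g3 are older names of the first and second. Marker lists of 8 cell types were also read, and the summed CPM of liver, skeletal muscle and cardiomyocyte markers overlapped between stages.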

Additional observations from a re-analysis of the deposited data

How the results depend on the processing

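The 10 genes gave 0 calls in every alternative but DESeq2, which called 1, Pparg, and gave Rxrg no adjusted p. Over all genes, 30 were called, and 403 with DESeq2, 17 with library totals without mitochondrial genes, 10 and 18 with limma on log2(FPKM + 1) and log2(FPKM + 0.1), 184 with the mitochondrial share as a term, and 8 to 371 on leaving out 1 library, the highest without E16.5 replicate 2. Of the members, Ppard, Pparg, Esrra, Esrrb, Esrrg, Ppargc1a and Rxra kept their direction in all 14 alternatives. With the mitochondrial share as a term the log2 change was -0.0532 for Ppara, 0.0776 for Ppargc1b and -0.0148 for Rxrg. On leaving out 1 library it ran from -0.13 to 0.32 for Ppara and from -0.34 to 0.54 for Rxrg. The level difference of Pparg and Esrrg ran from -0.11 to 0.40 (log2), that between stages of the ratio of Esrrg to Esrra from -1.02 to -0.28, of Ppargc1a to Ppargc1b from -0.0306 to 0.69, of Ppara to Ppard from -0.26 to 0.28 and of Rxrg to Rxra from -0.0815 to 1.02. For Ppara to Ppard it was 0.0051, and -0.0724 with a pseudocount of 1 and -0.0077 from counts. The causes were not tested.

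Replicate numbers are shared by the stages. Same-numbered libraries deviated together with correlations of 0.10, 0.19 and -0.07, beside -0.26 to 0.16 for libraries of different number. They were not taken as pairs, though with 3 libraries per stage these values cannot exclude pairing. With a replicate block 43 genes and 0 members were called, and the log2 change of Pparg was 1.38.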
